A study of Homo sapiens with 4 samples.

Results

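A panel of 38 interferon-stimulated and RNA-sensing genes was followed in U87MG cells treated with chaetocin, out of 57905 gene identifiers counted in every sample. The genes were listed by symbol. The panel held 24 interferon-induced effectors, 6 nucleic acid sensors and adaptors, 5 transcription factors, and interferon beta with both chains of its receptor. All 38 were found in the files, and 34 had enough reads to be tested.

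U87MG is an established human glioblastoma (GBM) cell line, and all samples were labelled wild type. RNA sequencing covered 2 groups of 2 samples, one left untreated and one given 50 nM chaetocin, dissolved in DMSO, for 24 h. Chaetocin is a fungal metabolite that inhibits histone methyltransferases, among them SUV39H1, a writer of the repressive mark on histone H3 lysine 9. The paper, however, reports no change in the trimethylated form of this mark after chaetocin at the dose and time used here. It attributes the drug's sensitization to apoptosis to reactive oxygen species and not to inhibition of that enzyme. Whether silencing was lost in the sequenced samples was not tested. No DMSO-only sample was labelled and the untreated cells are not said to have received DMSO, so the drug and its solvent cannot be told apart. The labels do not say that replicates came from separate cultures, and p-values then measure only the spread between these samples, which may be technical.

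Interferons are secreted proteins that alert cells to infection. RIG-I-like receptors, TLR3 and cGAS sense foreign or misplaced nucleic acid and act through MAVS and STING1 on the factors IRF3 and IRF7, which turn on interferon beta. Interferon beta binds the receptor made of IFNAR1 and IFNAR2, and a complex that holds STAT2 and IRF9 then binds a promoter element called the ISRE to induce the antiviral effectors. Inhibitors of DNA and histone methylation are known in other cells to set off this loop through transcripts of silenced repeats. The comparison addressed here was whether the loop moved in U87MG cells and whether IDO1, a gene best known for its response to interferon gamma, rose alone.

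The ISRE can be read in promoters of the panel. The stretches of 4 genes described below were picked by the estimates of these genes, which ran from higher to lower. How the element relates to the change cannot be read from these stretches. They cover the 150 bases before the annotated transcription start in RefSeq, GRCh38.p14. Capitals mark the ISRE core, GAAANNGAAA, on either strand, and adjoining or overlapping cores run together.
ISG15, chr1:1013347-1013496, plus strand: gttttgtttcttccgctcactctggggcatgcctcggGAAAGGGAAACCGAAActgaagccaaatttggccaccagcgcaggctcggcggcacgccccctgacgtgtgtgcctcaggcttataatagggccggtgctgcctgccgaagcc
BST2, chr19:17405631-17405780, minus strand: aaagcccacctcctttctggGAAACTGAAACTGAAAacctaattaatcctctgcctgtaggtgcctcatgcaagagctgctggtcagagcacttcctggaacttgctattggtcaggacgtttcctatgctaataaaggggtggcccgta
IFIT1, chr10:89392473-89392622, plus strand: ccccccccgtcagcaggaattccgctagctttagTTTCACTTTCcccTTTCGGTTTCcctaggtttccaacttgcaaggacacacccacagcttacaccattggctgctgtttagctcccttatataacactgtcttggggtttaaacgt
IFI44, chr1:78649639-78649788, plus strand: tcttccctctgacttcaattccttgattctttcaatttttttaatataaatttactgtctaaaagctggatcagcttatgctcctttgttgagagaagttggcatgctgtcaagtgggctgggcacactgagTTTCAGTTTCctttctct
In these stretches ISG15 and BST2 carry the core on the coding strand, and IFIT1 and IFI44 carry it on the opposite strand. RefSeq windows of 250 bases before to 50 bases after the start were matched for 26 of the 38 genes, as 33 windows. IDO1 and IRF7 were among the genes without a window, so the shares below do not cover them. The core lay in 21 of the 33 windows (63.6%), which belonged to 17 genes, against 3.57% of all 35116 windows. Median log2 fold change was 0.282 for the 15 tested genes with the core and -0.102 for the 8 tested genes whose window lacked it. BST2 and RSAD2 among the 15 and IRF9 among the 8 had enough reads only through the treated samples. The difference was not tested. The GAS element, TTCNNNGAA, through which interferon gamma acts, lay in 11 of the 33 windows (33.3%) against 7.66% of all windows, and the BST2 window held it as well, partly overlapping its ISRE core. A match is only a match of letters.

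Of the 34 tested genes, 3 rose with chaetocin and none fell in the edgeR quasi-likelihood test at an adjusted p under 0.05. ISG15, IRF7 and IDO1 rose. Over all 16416 tested genes, 1.11% were called higher and 0.743% lower. IDO1, and BST2 among the genes below, passed the filter on low counts only through the treated samples and could only have come out higher. Of the 29 genes that passed it on the controls alone, 2 were called higher and 0 lower, against 0.843% and 0.823% of all such genes. At an unadjusted p under 0.05, 6 of the 34 were higher (ISG15, IRF7, IDO1, BST2, IRF1 and IRF3) and 1 was lower (IFI44), against 10.9% and 9.43% of all genes. DESeq2 also called these 3 genes higher and none lower, against 2.35% and 2.93% of all genes, and gave no adjusted p for 5 of the 38. Because RNA was taken from bulk cultures, fewer cells expressing a gene and less RNA per cell cannot be told apart.

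The number of genes called moved with the samples in the fit, most with the treated ones. Without chaetocin 1, 7 genes rose (IFIT3, MX1, OAS3 and IRF3 besides ISG15, IRF7 and IDO1) and 3 fell (OASL, IFI44 and IFI44L), while calls over all genes went up as well, to 7.55% higher and 9.48% lower. Without chaetocin 2, 4 rose (IRF3 besides those 3) and TLR3 fell, against 4.23% and 5.59% of all genes. Without control 2, IRF7 was no longer called and 2 genes remained (1.24% of all genes higher and 0.868% lower), and without control 1 the 3 calls stayed (1.2% and 0.538%). ISG15 and IDO1 were called in all 4 of these fits.

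Fold changes were spread on both sides of no change. Of the 34 genes, 21 had a positive and 13 a negative log2 fold change. The median log2 fold change was 0.15, beside 0.0079 for all tested genes. It stayed the same whether IDO1 was placed at its fitted value or at its fold over the read floor given below. Leaving out 1 sample moved this median, from -0.061 without chaetocin 2 to 0.239 without control 1. In 13 genes both treated samples lay above both controls, in 7 both lay below, and in 14 the groups overlapped. Over all tested genes, 26.8% lay above and 26% below. Of the 13 genes above, IDO1, BST2, RSAD2 and IRF9 passed the filter on low counts only through the treated samples, and among the 29 genes that passed it on the controls alone 9 lay above (31.0%) and 7 below (24.1%), against 23.7% and 28.7% of all genes that did. Without chaetocin 2, 15 genes lay above and 16 below (40.5% and 40.1% of all genes in that fit), and without chaetocin 1, 22 and 8 (42.6% and 39.2%). For 19 of the 34 genes the 95% interval of the change lay wholly within 2-fold in either direction. For the others it reached a change of 2-fold or more. STING1 did not pass the filter on the controls alone either. For IDO1, BST2, RSAD2 and IRF9 a lower level could not have been tested.

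**Figure D1:**
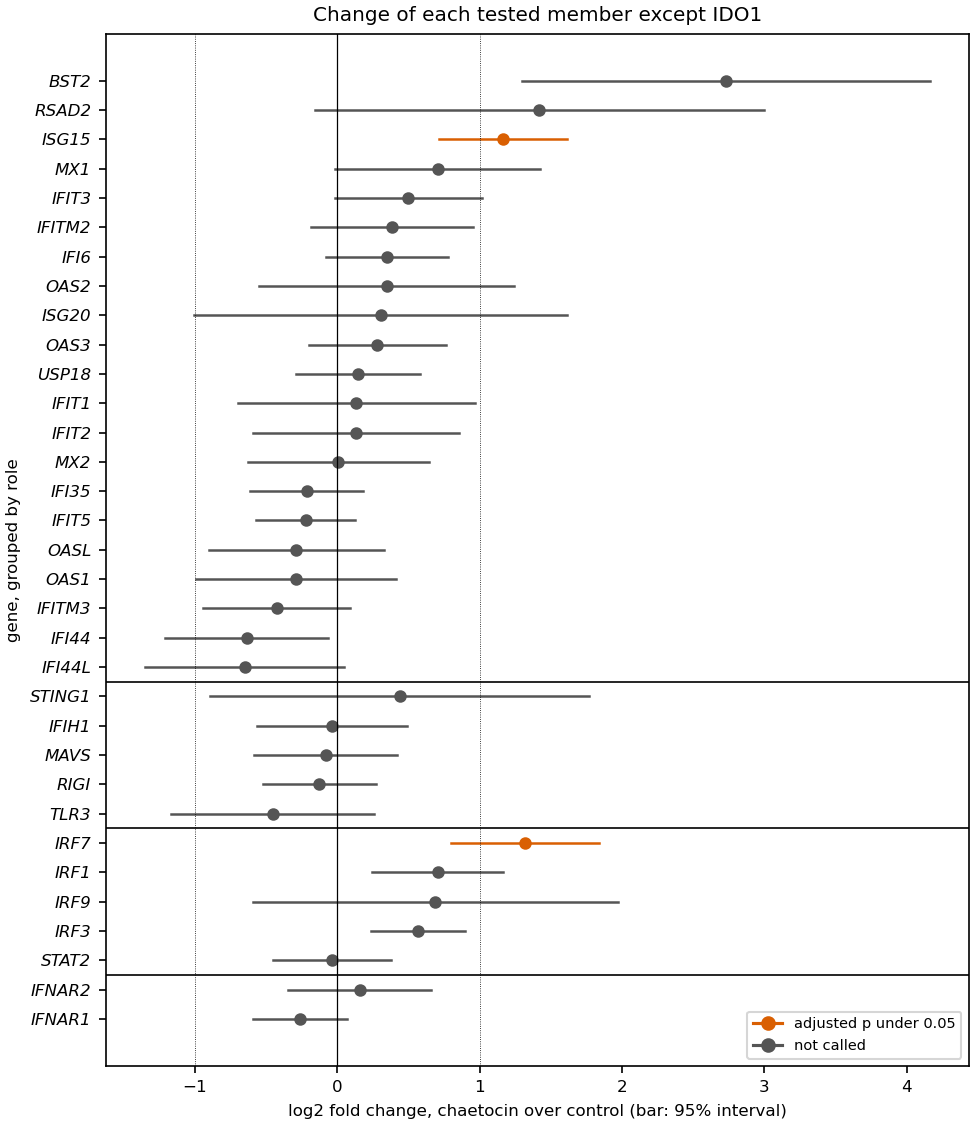
Log2 fold change of chaetocin over control (horizontal axis) for the 33 tested genes other than IDO1, grouped by role from effectors at the top to receptors at the bottom. Points are the edgeR estimates, bars their 95% intervals, and dotted lines mark a change of 2-fold. ISG15 at 1.16 and IRF7 at 1.32, in orange, were called, while BST2 had the highest estimate, 2.73, and a wide interval.

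Among the effectors, ISG15 encodes a small ubiquitin-like protein that is attached to other proteins during an interferon response. Its normalized level was 18.8 and 16.3 CPM (reads of a gene per 1000000 reads of the library, after TMM scaling) in the controls and 33.2 and 45.1 CPM in the treated samples. Both treated samples lay above both controls. The mean went from 17.5 ± 1.81 to 39.2 ± 8.46 CPM (SD, n = 2 per group), a 2.24-fold rise with a 95% interval of 1.64 to 3.06 (log2 fold change 1.16, SE 0.20, edgeR adjusted p = 0.0341). Its exons shared 36 bases with AL645608.3 on the other strand, which had 0 reads in every sample.

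IDO1 encodes indoleamine 2,3-dioxygenase, the enzyme that takes tryptophan into the kynurenine pathway. It had 0 reads in both controls, 16 reads in chaetocin 1 (exact 95% Poisson interval 9.15 to 25.98) and 35 in chaetocin 2 (24.4 to 48.7), where the intervals and the floor used below cover counting error only. These are 0.735 and 0.985 CPM, so the treated level was low and was seen in both treated samples. Against a floor of 3 reads in each control library, the mean of 0.860 ± 0.177 CPM (SD, n = 2) was 7.57-fold higher. This bounds the controls only and takes the treated mean as read, so it is not a lower bound of the change. The edgeR adjusted p was 0.0341 and that of DESeq2 0.00428, and the fitted log2 fold change of 7.59 (SE 1.18) depends on the count added to the zeros. A filter of 10 reads in every sample removes the gene from the test. On the other strand, AC007991.4 shared 120 bases with IDO1 and had 2, 2, 0 and 2 reads in the 4 samples in the order control 1, control 2, chaetocin 1, chaetocin 2.

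BST2 encodes tetherin, which holds budding virus at the cell surface. It had 3 reads in each control, 18 in chaetocin 1 and 26 in chaetocin 2. Although the groups were well apart in reads, the test did not pass over all genes (log2 fold change 2.73, SE 0.62, interval 1.30 to 4.16, adjusted p = 0.0655). RSAD2, which encodes the antiviral enzyme viperin, had 5 and 3 reads in the controls against 8 and 16 (1.42, adjusted p = 0.292). IFI27 had 2, 4, 9 and 6 reads in the same order of samples and IFITM1 0, 0, 0 and 1, and both stayed under the filter.

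**Figure D2:**
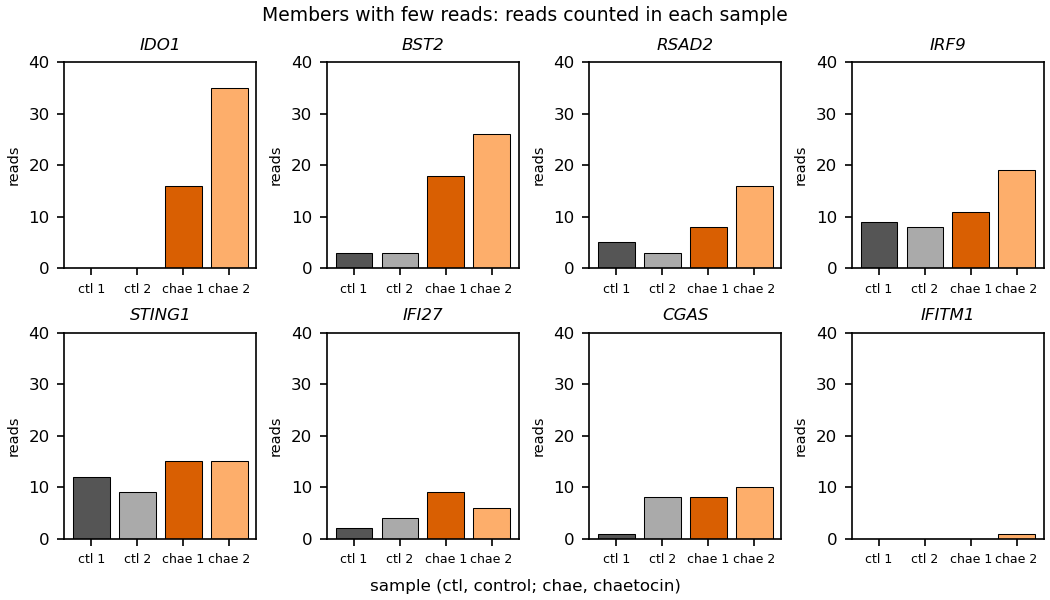
Reads counted (vertical axis, from 0) in each of the 4 samples for 8 genes of the panel with few reads, with controls in grey and chaetocin samples in orange. IDO1 went from 0 and 0 to 16 and 35 reads and BST2 from 3 and 3 to 18 and 26, while STING1, with 12, 9, 15 and 15 reads, CGAS and IFITM1 showed no such gap.

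The IFIT proteins bind viral RNA and hold back its translation, and they are among the genes induced most by interferon. IFIT1 was at 9.55 and 6.89 CPM in the controls and at 5.51 and 12.3 CPM in the treated samples, one below and one above both controls (log2 fold change 0.13, interval -0.70 to 0.97, adjusted p = 0.878). IFIT2 was spread in the same way, at 7.21 and 7.34 CPM against 5.33 and 10.5 CPM (0.13, adjusted p = 0.856). IFIT3, at 11.9 and 11.2 CPM in the controls, reached 13.2 and 19.4 CPM (0.50, interval -0.02 to 1.02, adjusted p = 0.261). IFIT5 was at 46.4 and 44.4 against 36.3 and 41.6 CPM (-0.22, adjusted p = 0.456). No IFIT gene was called, and chaetocin 2 had the higher level of the 2 treated samples in all 4.

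MX1 and MX2 encode dynamin-like GTPases that trap viral particles. MX1 was at 2.29 and 2.40 CPM in the controls and at 2.99 and 4.62 CPM after treatment (log2 fold change 0.71, interval -0.02 to 1.43, adjusted p = 0.255). MX2 was at 3.11 and 3.45 against 2.94 and 3.63 CPM, with an estimate of 0.0086 whose sign turned with DESeq2 and without the filter on low counts. Neither was called.

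The oligoadenylate synthases OAS1, OAS2 and OAS3 make the messenger that switches on RNase L. OAS3, with the highest CPM of the 3, was at 29.95 and 32.4 CPM in the controls and at 30.1 and 45.7 CPM in the treated samples (log2 fold change 0.28, interval -0.20 to 0.76, adjusted p = 0.492). OAS1 was at 2.58 and 2.33 against 1.93 and 2.08 CPM (-0.29, adjusted p = 0.646), and OAS2 at 3.11 and 1.53 against 2.48 and 3.35 CPM (0.35, adjusted p = 0.668). OASL, a relative without synthase activity that aids RIG-I, was at 20.1 and 19.9 against 21.3 and 11.7 CPM (-0.29, adjusted p = 0.596). None was called, and chaetocin 2 stood farthest from the controls in OAS3, above them, and in OASL, below them.

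IFI44 and its relative IFI44L are interferon-induced genes that lie side by side on chromosome 1. IFI44 was at 83.6 and 89.6 CPM in the controls and at 71.8 and 39.8 CPM in the treated samples (log2 fold change -0.64, interval -1.21 to -0.06, adjusted p = 0.207). IFI44L was at 30.2 and 36.4 against 28.7 and 14.02 CPM (-0.65, interval -1.35 to 0.05, adjusted p = 0.277). In both genes the treated samples lay below both controls, chaetocin 2 farthest. Per kilobase of exon, IFI44 had the highest control level of the panel, 42.5 CPM per kb. IFNAR1 at 20.3, STAT2 at 19.1 and ISG15 at 18.6 came next, so interferon-stimulated genes were read in the untreated cells too.

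The other effectors did not pass the test. IFITM3 and IFITM2 belong to a family that blocks viral entry, and IFITM2 shares 351 exon bases with IFITM1, so how reads were divided among these paralogs is uncertain. IFITM3 was at 10.4 and 9.54 against 8.46 and 6.47 CPM (log2 fold change -0.43, adjusted p = 0.332), and IFITM2 at 3.73 and 3.58 against 4.73 and 4.81 CPM (0.38, adjusted p = 0.424). IFI6, an inhibitor of cell death, was at 16.1 and 14.2 against 21.1 and 17.5 CPM (0.35, adjusted p = 0.336). USP18, which removes ISG15 from proteins and damps the receptor, was at 11.1 and 10.6 against 12.2 and 11.8 CPM (0.15, interval -0.29 to 0.58), so that a 2-fold rise lay outside its interval while ISG15 itself was called. IFI35 was at 16.7 and 17.7 against 15.1 and 14.6 CPM (-0.21, adjusted p = 0.532). ISG20, an exonuclease, had 27, 13, 27 and 25 reads in the same order of samples, with wide error (0.31, interval -1.004 to 1.62).

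**Figure D3:**
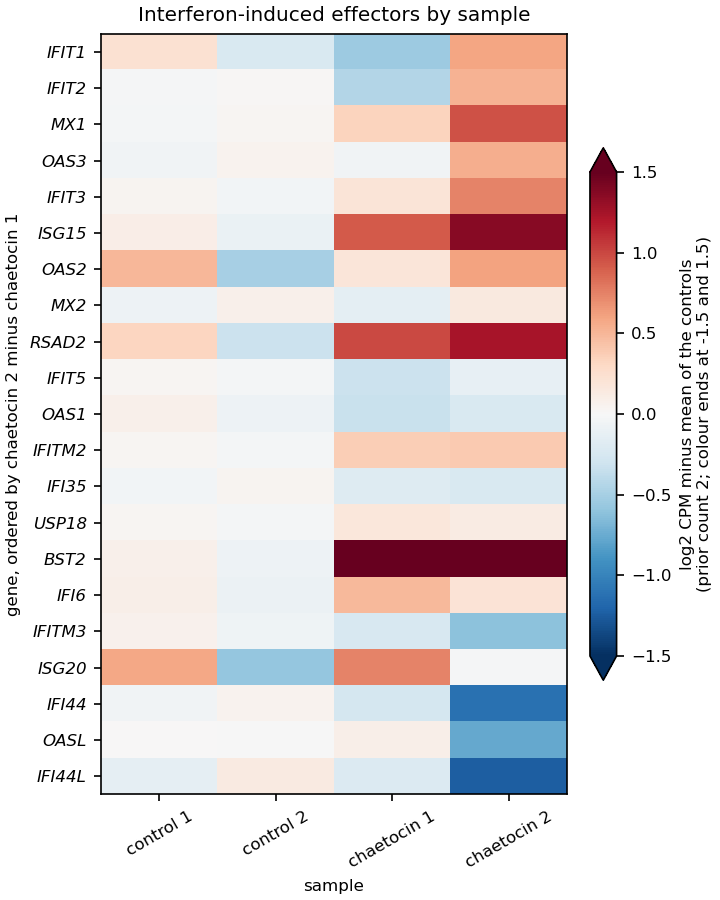
Heat map of 21 tested effectors other than IDO1 (rows, ordered by the difference between the treated samples) in the 4 samples (columns). Colour is log2 CPM (prior count 2) minus the mean of the controls, red higher and blue lower. ISG15, RSAD2 and BST2 were red in both treated samples, whereas IFIT1 was at -0.55 in chaetocin 1 and 0.60 in chaetocin 2 and IFI44L at -0.21 and -1.24.

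The treated samples differed from each other in these genes. Chaetocin 2 had the higher normalized level in 23 of the 34 tested genes (67.6%), against 50.2% of all tested genes, and in 70.2% of the 47 other interferon-stimulated genes described below. Between the controls, control 2 was above control 1 in 11 of the 34 (32.4%), against 51.1% of all tested genes and 53.2% of the 47. The median log2 difference of the 34 genes was 0.17 between the treated samples (chaetocin 2 minus chaetocin 1) and -0.072 between the controls (control 2 minus control 1). The median difference from the mean of the controls was 0.020 on the log2 scale in chaetocin 1 and 0.20 in chaetocin 2. Chaetocin 2 was also the deeper library, with 32590479 reads in genes against 21241984, and held more detected genes, 27748 against 24699. The part of depth in this difference was not tested.

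Of the sensors, RIG-I (gene RIGI, older symbol DDX58) and MDA5 (gene IFIH1) detect double-stranded RNA in the cytosol. RIGI was at 21.1 and 18.97 CPM in the controls and at 17.4 and 19.3 CPM in the treated samples (log2 fold change -0.13, interval -0.52 to 0.27). IFIH1 was at 7.29 and 7.03 against 6.11 and 7.80 CPM (-0.04, interval -0.56 to 0.49, with the sign turning under upper-quartile scaling). Both are induced by interferon in most cells, and for both a 2-fold change in either direction lay outside the interval. MAVS, their adaptor on mitochondria, was at 25.5 and 30.5 against 21.1 and 31.8 CPM (-0.08, adjusted p = 0.879).

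TLR3, the double-stranded RNA receptor of endosomes, was at 12.8 and 11.6 CPM in the controls, at 5.84 CPM in chaetocin 1 and at 11.8 CPM in chaetocin 2 (log2 fold change -0.45, adjusted p = 0.454). Chaetocin 1 alone stood apart. CGAS and STING1 were hardly expressed. CGAS, the cytosolic DNA sensor, had 1, 8, 8 and 10 reads and was not tested, and its adaptor STING1 had 12, 9, 15 and 15 reads (0.44, interval -0.89 to 1.77). In none of the 5 tested sensors and adaptors did the treated samples separate from the controls, against 26.8% of all genes above and 26% below.

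The transcription factors gave the other call. IRF7, the factor that amplifies interferon production and is itself an interferon-stimulated gene, was at 4.55 and 4.04 CPM in the controls and at 9.79 and 11.6 CPM in the treated samples. Its mean went from 4.29 ± 0.362 to 10.7 ± 1.28 CPM (SD, n = 2 per group), a 2.50-fold rise with a 95% interval of 1.74 to 3.58 (log2 fold change 1.32, SE 0.23, edgeR adjusted p = 0.0365). The call was lost without control 2 (log2 fold change 1.22, adjusted p = 0.0941).

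IRF3, which is present before infection and responds through phosphorylation, was at 40.8 and 44.3 CPM in the controls and at 63.8 and 62.2 CPM in the treated samples (log2 fold change 0.57, SE 0.14, adjusted p = 0.0831). IRF1, which drives many targets of interferon gamma, was at 38.03 and 25.6 against 51.3 and 52.6 CPM (0.71, SE 0.20, adjusted p = 0.106). In both genes the groups did not overlap, and neither passed. With no filter on low counts both were called (adjusted p = 0.0469 for IRF3 and 0.00606 for IRF1), as were BST2 (0.0245) and, lower, IFI44 (0.00635) and IFI44L. IRF3 and IRF1 share exon bases with genes on the other strand in GENCODE on GRCh38. These are BCL2L12, over 19.3% of IRF3, and C5orf56, over 22% of IRF1. BCL2L12 had 553 and 705 reads in the controls against 696 and 1223 (log2 fold change 0.49, edgeR adjusted p = 0.134). C5orf56 had 53 and 43 against 41 and 70 reads (0.079, edgeR adjusted p = 0.928). Reads of such pairs cannot be told apart without strand.

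STAT2 and IRF9 belong to the complex that binds the ISRE. STAT2 was at 108 and 125 CPM in the controls and at 96.8 and 131 CPM in the treated samples (log2 fold change -0.04, interval -0.45 to 0.38, with the sign turning under upper-quartile scaling). IRF9 had only 9, 8, 11 and 19 reads (0.69, interval -0.59 to 1.97), and 48.4% of its exon bases are shared with the annotated gene AL136295.5 on the same strand. A 2-fold change lay outside the interval for STAT2 and inside it for IRF9.

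No interferon transcript was seen. IFNB1, the gene of interferon beta, had 0 reads in all 4 samples, which allows up to 0.0844 to 0.138 CPM per library at a floor of 3 reads. The 20 other interferon genes listed for comparison (other type I genes, interferon gamma and the lambda genes) also had 0 reads in every sample. Around IFNB1 on the short arm of chromosome 9, a region that many gliomas lack, MLLT3, CDKN2A, CDKN2B and DMRTA1 had 0 reads in all 4 samples, and FOCAD, HACD4, KLHL9 and MTAP had at most 10. ELAVL2, with 51, 81, 74 and 136 reads, was the exception among the 9 neighbours listed. Whether IFNB1, or any of the 20 other interferon genes, is present in these cells cannot be read from RNA.

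The receptor was well expressed. IFNAR1 was at 121 and 134 CPM in the controls and at 103 and 110 CPM in the treated samples (log2 fold change -0.26, interval -0.59 to 0.07, adjusted p = 0.345). IFNAR2 was at 11.4 and 9.67 against 10.2 and 13.3 CPM (0.16, adjusted p = 0.741). Part of its exons overlaps IL10RB-DT on the other strand (39.1%), which had 7 to 20 reads. On the same strand, AP000295.1 overlaps 44.2% of the IFNAR2 exon bases and had 0 reads in every sample. Neither chain was called.

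**Figure D4:**
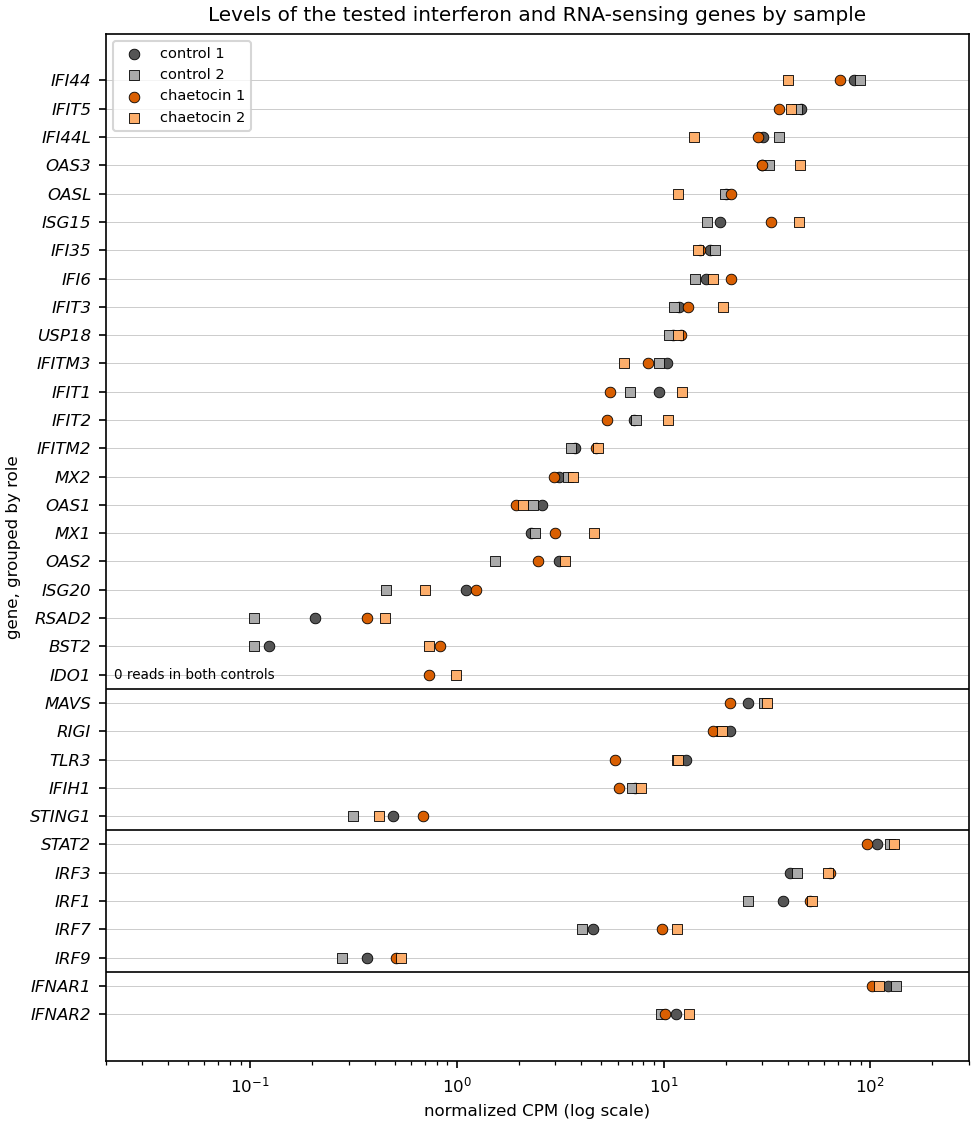
Normalized CPM (horizontal axis, log scale) of the 34 tested genes, grouped by role from effectors at the top to receptors at the bottom. Controls are grey and chaetocin samples orange, with circles for replicate 1 and squares for replicate 2, and the 0 reads of IDO1 in the controls cannot be drawn on this axis. Orange and grey points lay apart for ISG15, IRF7, BST2 and IRF3 and were interleaved for IFIT1, IFIT2, MAVS and STAT2.

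The rest of the pathway was read from lists of other genes, counted in the same fit. Of 50 further interferon-stimulated genes, 47 were tested, none was called higher and 1, GBP2, was called lower (1.11% and 0.743% of all genes), and 4 were higher and 10 lower at an unadjusted p under 0.05, against 10.9% and 9.43% of all genes. GBP2, a guanylate-binding GTPase, was at 24.9 and 21.4 CPM in the controls and at 12.9 and 11.8 CPM in the treated samples (log2 fold change -0.91, SE 0.18, edgeR adjusted p = 0.0498). The median log2 fold change of the 47 was -0.20, with 16 positive and 31 negative, and the treated samples lay above both controls in 7 and below in 24, against 26.8% and 26% of all genes. DESeq2 called none higher and 3 lower (2.35% and 2.93% of all genes), SAMD9L and SLFN5 besides GBP2, which are named here because of those calls. SLFN5, among the 3 genes of the list with the highest CPM, was at 326 and 327 against 212 and 213 CPM in the edgeR normalization (-0.62, edgeR adjusted p = 0.0736).

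Targets of interferon gamma were looked at because IDO1 is one. Of 15 listed, 11 were tested, none was called higher and GBP2, shared with the list above, was called lower (1.11% and 0.743% of all genes). At an unadjusted p under 0.05, 0 were higher and 4 lower, and DESeq2 called 0 higher and 1 lower, where the shares of all genes were 10.9% and 9.43% for the first count and 2.35% and 2.93% for the second. Their median log2 fold change was -0.32, and 3 were positive. CIITA, the master switch of MHC class II genes, was at 33.2 and 30.5 against 24.5 and 19.4 CPM (-0.54, adjusted p = 0.143). Named after their values were seen, the chemokine genes CXCL9 and CXCL10, strongly induced by interferon gamma in most cells, had 0 reads in every sample and 1, 0, 0 and 0 reads, and CXCL11 had 0, 0, 0 and 6.

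Signalling below the receptors and the remaining nucleic acid sensors gave no call. Of 18 genes of interferon receptor signalling, 16 were tested and the median log2 fold change was -0.05. JAK1, the kinase bound to IFNAR2, was at 432 and 454 against 316 and 407 CPM (-0.29, interval -0.71 to 0.12), so that a 2-fold rise lay outside its interval. Of 27 other nucleic acid sensing genes, 26 were matched and 21 tested, with a median of 0.077. The edgeR counts at an unadjusted p under 0.05 were 0 higher and 3 lower in the first list and 1 higher and 0 lower in the second, against 10.9% and 9.43% of all genes, and DESeq2 called none in either, against 2.35% and 2.93%.

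Around IDO1, 20 genes of tryptophan uptake and the kynurenine pathway were listed, 16 were tested, 1 was called higher and 1 lower, against 1.11% and 0.743% of all genes. At an unadjusted p under 0.05, 1 was higher and 3 lower (10.9% and 9.43% of all genes), and DESeq2 called 1 higher and 2 lower (2.35% and 2.93%), the second being CYP1B1, named here because of that call. SLC3A2, the heavy chain of the amino acid transporter that carries tryptophan, was at 182 and 181 CPM in the controls and at 390 and 455 CPM in the treated samples (log2 fold change 1.22, SE 0.16, adjusted p = 0.0266). SLC7A5, of the same list and named after its values were seen, was at 167 and 112 against 144 and 62.2 CPM (-0.44, edgeR adjusted p = 0.551). Uptake itself was not measured. AHR, the receptor that kynurenine binds, was at 171 and 161 against 94.9 and 84.3 CPM (-0.89, SE 0.15, adjusted p = 0.0333). The other tryptophan dioxygenases are named for their role, after their values were seen. IDO2, which lies next to IDO1, had 4, 2, 6 and 4 reads, and TDO2 was tested and not called (0.54, adjusted p = 0.320). KYNU, the kynureninase gene and the list's highest in control CPM, was at 247 and 246 against 273 and 270 CPM (0.14, adjusted p = 0.638).

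IDO1 is also expressed by some myeloid cells, so markers of leukocytes were counted beside it. Of 25 markers, 11 were tested and 4 were called higher, against 1.11% of all genes. Of the 11, PTPRC, ITGAM, CD14 and CD68 did not pass the filter on low counts on the controls alone. Among these 4, PTPRC, ITGAM and CD68 could only have come out higher. The other 7 of the 11 passed the filter on the controls, and 2 of them, FCER1G and CD53, were called higher, against 0.843% of all such genes. At an unadjusted p under 0.05, 6 of the 11 were higher and 0 lower (10.9% and 9.43% of all genes), and DESeq2 called 3 higher, without PTPRC (adjusted p = 0.0553), and 0 lower (2.35% and 2.93%). PTPRC had 0, 1, 15 and 27 reads, ITGAM 0, 1, 24 and 29, FCER1G 15, 26, 67 and 96, and CD53 24, 22, 99 and 166, in the order control 1, control 2, chaetocin 1, chaetocin 2. CD79A had 2, 0, 11 and 10 reads and was not tested. CD14 had 7, 11, 10 and 41, CD2 27, 35, 40 and 96, and LAPTM5 41, 36, 104 and 65, and these 3 were tested and not called. CD3E, CD8A, MS4A1, TYROBP and AIF1 were among the 6 markers of the list with 0 reads in every sample. The summed level of all 25 was 49.1 and 52.1 CPM in the controls and 65.7 and 49.3 CPM in the treated samples. CSF1R and ITGAX, the highest of the list, were set apart after their values were seen. They summed to 42.5 and 45.9 CPM in the controls against 47.2 and 32.5 CPM in the treated samples. The other 23 markers summed to 6.56 and 6.19 CPM in the controls against 18.4 and 16.7 CPM in the treated samples. These 23 include the 4 that did not pass the filter on the controls alone. The part of these genes in the result for IDO1 was not tested.

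Of the 9 glioma markers, VIM, CD44, TNC and FN1 were abundant (at least 1114 CPM in both group means) while S100B and SOX2 had 0 reads in both controls and at most 5 after treatment, and GFAP had 10 to 25 reads. All 7 tested markers had negative estimates (median log2 fold change -0.80), with 0 called by edgeR, 4 lower at an unadjusted p under 0.05 (9.43% of all genes) and 3 called lower by DESeq2 (2.93% of all genes). Totals ran from 21241984 to 32590479 reads per sample, the mitochondrial share from 3.28% to 4.12% and the share of ribosomal protein genes from 1.73% to 2.27%. In both shares chaetocin 1 and chaetocin 2 stood at opposite ends, with the controls between them.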

How the data were processed

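Gene counts from 4 U87MG samples were used. The authors deposited raw counts, whole numbers of reads per Ensembl gene identifier, with 1 table per sample and no normalization. The submitters' processing notes name cutadapt, TopHat2, TopHat and SAMtools and the build GRCh37, while the counter, annotation, strand setting and versions are not given in the sources used here. Libraries were made from poly(A)-selected RNA. Symbols, exon lengths and overlaps were taken from GENCODE 29 on GRCh38, which is not the authors' build. They covered 52338 of 57905 identifiers.

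Counts of all genes were fitted in R 4.3.3 with the edgeR 4.0.16 quasi-likelihood test (filterByExpr with a minimum count of 10, TMM, robust, Benjamini-Hochberg over 16416 genes, threshold 0.05), chosen in place of the DESeq2 named in the paper's methods, which was kept as an alternative (DESeq2 1.42.0). The SE is the log2 fold change over the root of the F statistic. The scripts were tested on simulated data. Totals were 25918137 and 30351416 reads in the controls and 21241984 and 32590479 in the treated samples, and 3 reads correspond to 0.0844 to 0.138 CPM. With 2 samples per group, an exact two-sided permutation test of 1 gene cannot go below p = 0.333, so none was run. Other scalings, filters, DESeq2, a replicate block and leaving out each sample were tried. All genes of the panel are reported, of other lists each called gene and otherwise at most the 3 with the highest mean CPM, and of the chromosome 9 and marker lists any gene with its reads, with the exceptions named as such in the text. The genes and lists were chosen with earlier results of these data known.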

Additional observations from a re-analysis of the deposited data

How the results depend on the processing

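No sample was labelled as a vehicle control, and whether the untreated cells received DMSO is not stated. With 2 samples per group, a call that was missed does not show that a gene did not change. ISG15 was called under every alternative run, IDO1 under every one that kept it in the test, and IRF7 under all but the fit without control 2. Of the panel's 33 tested genes other than IDO1, 33 kept direction and call under RLE scaling, 31 under upper-quartile scaling (IFIH1 0.041 and STAT2 0.042 turned positive) and 32 with DESeq2 (MX2 -0.009), which called 385 genes higher and 481 lower over all. With no filter on low counts, 6 genes of the panel were called higher (BST2, IRF1 and IRF3 besides the 3) and 2 lower (IFI44 and IFI44L), against 787 and 759 over all genes, and MX2 was at -0.011. Requiring 10 reads in every sample gave 114 and 80 over all genes and took IDO1 out. At an unadjusted p under 0.05 the counts were 6 and 1 in the panel and 1791 and 1548 over all genes. The cause of these shifts was not tested. Upper-quartile scaling moved the median of all genes by 0.077.

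The labels share only replicate numbers. Same-numbered samples deviated together weakly (r = 0.123 over 16416 genes), and the fit with the replicate block called 6 genes of the panel higher (BST2, IRF1 and IRF3 besides the 3) and 1, IFI44, lower (1036 and 1053 over all genes).

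Leaving out 1 sample leaves a group with 1 sample, which is assumed to vary like the others. Over these 4 fits, 2 to 7 genes of the panel were called higher and 0 to 3 lower (215 to 1332 and 97 to 1673 over all genes). The panel's median log2 fold change ran from -0.061 (without chaetocin 2) to 0.239, the number of its genes with treated samples above the controls from 13 to 22 and below from 7 to 16, but with a sample fewer any gene separates more easily, and over all genes 35.7% to 42.6% lay above and 34.7% to 40.1% below in these fits. Estimates that changed sign ran from -0.166 to 0.148 for MX2, -0.579 to 0.588 for IFIT1, -0.456 to 0.527 for IFIT2, -0.223 to 1.058 for ISG20, -0.098 to 0.921 for OAS2, -0.061 to 0.552 for OAS3, -0.771 to 0.083 for OASL, -0.417 to 0.184 for MAVS, -0.235 to 0.126 for IFIH1, -0.277 to 0.165 for STAT2 and -0.061 to 0.337 for IFNAR2.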
